A study of Mus musculus with 10 samples.

Results

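Collagen genes were examined in skin wounds of diabetic mice given a microRNA mimic. The members are the genes whose platform symbol has the form Col, a number, a, a number, with Col17a1 left out and with the brightest one-gene feature used for each. There were 42 such genes of 30773 genes with a one-gene feature. Col7a1, which encodes the chain of anchoring fibrils, shares its feature with Mir711 and was therefore not analysed here. Both groups were male db/db animals [BKS(D)-Leprdb/JOrlRj] on a C57BL/6 background, 11 weeks old on arrival and wounded after a further week. This genotype lacks a working leptin receptor, so the control wounds are diabetic as well and no non-diabetic wound was compared. A 4 mm punch made 2 full-thickness wounds on the back of each animal. Every wound then received an intradermal dose of 0.5 nmol mimic, either miR-132 or control, spread over 4 injections with a delivery reagent (100 µl in all). Biopsies of the wound edge from day 6 gave the RNA, 150 ng per Affymetrix Clariom D array, with 5 samples per group. The labels do not say whether each sample came from a separate mouse, so the tests measure the spread between these samples.

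Collagens are proteins of 3 chains wound into a triple helix. Fibrillar collagens build the tensile fibrils of dermis and scar, with type III laid down early in a wound and type I dominating later. Type IV forms the sheet of basement membranes, types VIII and X form networks, and type VI forms beaded filaments around cells. FACIT collagens, the fibril-associated collagens with interrupted triple helices, sit on the surface of fibrils. Multiplexins bridge basement membrane and stroma, and transmembrane collagens are anchored in the cell membrane.

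The agent supplied was a mimic of miR-132, a microRNA that lowers messenger RNAs pairing with its seed. The labels do not name the arm; the 3p arm of mouse miR-132 is shown with its seed (bases 2 to 8) in capitals, from RefSeq on build GRCm38.p6.
mmu-miR-132-3p: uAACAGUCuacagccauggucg

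Of the 42 members, 33 had a promoter window in the RefSeq table of the same build, which runs from 250 bases before to 50 bases after an annotated start. The windows of Col4a1 and Col4a2, the chains that assemble into the common type IV molecule, are shown because the annotated starts of both genes lie close together on opposite strands of chromosome 8. The capitals mark the 78 bases that both windows hold, read from each gene's own strand. The Col4a1 window is chr8:11312777-11313076 on the minus strand and the Col4a2 window is chr8:11312555-11312854 on the plus strand.
Col4a1: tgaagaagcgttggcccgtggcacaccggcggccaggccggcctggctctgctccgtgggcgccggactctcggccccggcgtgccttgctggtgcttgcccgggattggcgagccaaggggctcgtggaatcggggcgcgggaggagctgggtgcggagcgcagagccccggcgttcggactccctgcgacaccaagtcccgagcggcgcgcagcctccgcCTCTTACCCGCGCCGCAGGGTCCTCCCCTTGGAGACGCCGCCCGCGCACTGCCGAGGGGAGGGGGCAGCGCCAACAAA
Col4a2: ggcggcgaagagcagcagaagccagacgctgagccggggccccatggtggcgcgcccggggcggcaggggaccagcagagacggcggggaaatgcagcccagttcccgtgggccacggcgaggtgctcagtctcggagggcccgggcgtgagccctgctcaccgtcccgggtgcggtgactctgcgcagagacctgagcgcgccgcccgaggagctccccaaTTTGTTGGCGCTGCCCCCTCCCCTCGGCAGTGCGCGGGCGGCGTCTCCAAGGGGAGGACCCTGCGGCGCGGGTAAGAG

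The windows of Col1a2 (chr6:4505368-4505667, plus strand) and Col3a1 (chr1:45311288-45311587, plus strand) are shown because these fibrillar genes tracked each other over the arrays, as described further on. Capitals mark the motifs CCAAT and TATAA on either strand, and overlapping matches run together.
Col1a2: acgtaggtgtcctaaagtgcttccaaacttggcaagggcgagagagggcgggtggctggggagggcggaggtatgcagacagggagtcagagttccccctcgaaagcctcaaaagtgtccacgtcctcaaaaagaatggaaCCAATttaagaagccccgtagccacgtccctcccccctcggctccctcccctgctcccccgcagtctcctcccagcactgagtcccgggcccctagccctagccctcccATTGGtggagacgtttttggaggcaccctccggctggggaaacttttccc
Col3a1: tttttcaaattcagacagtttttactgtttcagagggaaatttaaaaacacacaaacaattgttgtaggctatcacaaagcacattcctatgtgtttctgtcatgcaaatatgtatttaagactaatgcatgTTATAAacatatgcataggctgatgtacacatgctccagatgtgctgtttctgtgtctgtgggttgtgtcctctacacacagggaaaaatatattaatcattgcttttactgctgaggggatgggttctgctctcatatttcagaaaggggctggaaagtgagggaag
The Col1a2 window held 2 matches to CCAAT, at separate places, and 0 to TATAA. The Col3a1 window held 0 and 2, and its 2 matches are a single stretch, TTATAA, counted on both strands. Over all 32851 windows of the table, 37.4% held CCAAT and 24.9% held TATAA on either strand. Among the 36 windows of collagen genes these shares were 30.6% and 16.7%. The motif GGGCGG, searched on both strands, was held by 61.1% of the collagen windows and 35.7% of all windows. GC content was 74.0% for Col4a1 and 73.7% for Col4a2, 61.0% for Col1a2 and 37.7% for Col3a1, against a median of 52.7% over all windows. These matches describe the letters only.

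The arrays carried the keratinocyte genes of skin, with Krt5, Krt14 and Krt10 at 18.43 or more on all 10 arrays on a scale whose upper limit is 19.93. Values are the log2 signal deposited by the authors, and 0 of the collagen members reached that limit on any array. Over the genes tested, the span from the lowest to the highest decile of an array was narrowest for miR-132 replicates 2 and 5, at 5.77 and 6.26, and was 6.37 to 6.75 elsewhere. The spike-in controls added at hybridisation lay between 10.43 and 10.61 on the control arrays and on miR-132 replicates 1 and 2, and between 10.90 and 10.98 on miR-132 replicates 3 to 5. The Mir132 feature lay below the level used for testing, at 3.21 ± 0.25 in the control group and 3.38 ± 0.41 in the miR-132 group (SD, 5 samples per group). At that level it does not show whether the mimic reached the wounds.

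Across the family, collagen messenger RNA in miR-132 wounds did not differ from that in control wounds beyond the spread between samples. Genes were tested where their mean over the 10 arrays exceeded 4.17, the median over all features, which held for 30 of the 42 collagen genes and for 17653 genes in all. Of the 30, 0 passed limma at a Benjamini-Hochberg adjusted p of 0.05, as did 0% of all genes tested (0 of 17653), and the lowest adjusted p of a collagen gene was 0.596. At limma's unadjusted p under 0.05 there were 4 collagen genes, all higher with miR-132, which is 13.3% of those tested, against 8.09% of all genes in either direction and 2.47% in that direction. After quantile normalization there was 1 such collagen, against 3.47% of all genes in that direction, and without miR-132 replicate 2, without miR-132 replicate 5 or without control replicates 1, 4 or 5 (each left out singly) there was 1 as well, while there were 2 without miR-132 replicate 1. All 4 collagens under 0.05 on the deposited values had means below 5. Between 4 and 5, 65.8% of all genes averaged higher. The share under 0.05 at that level was not computed, so the 2.47% is not matched for level. Of the 4, Col28a1 and Col4a4 had control means below the filter and passed it only through the miR-132 group. No second tool was run. In these bulk samples, fewer cells of a type and less RNA per cell cannot be told apart.

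Of the 30 genes tested, 21 averaged higher and 9 lower with miR-132, with a median difference of 0.07 on the log2 scale, against -0.02 over all genes tested, 45.5% of which averaged higher and 54.5% lower. The collagen median was -0.0045 without miR-132 replicate 5 and 0.17 without miR-132 replicate 3. After a further quantile normalization the collagen split was 25 higher and 5 lower, while 54.2% of all genes averaged higher. The split moved with single arrays. It was 14 higher and 16 lower without miR-132 replicate 5. The number of lower genes was 4 without miR-132 replicate 2 and 5 without miR-132 replicate 3.

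**Figure D1:**
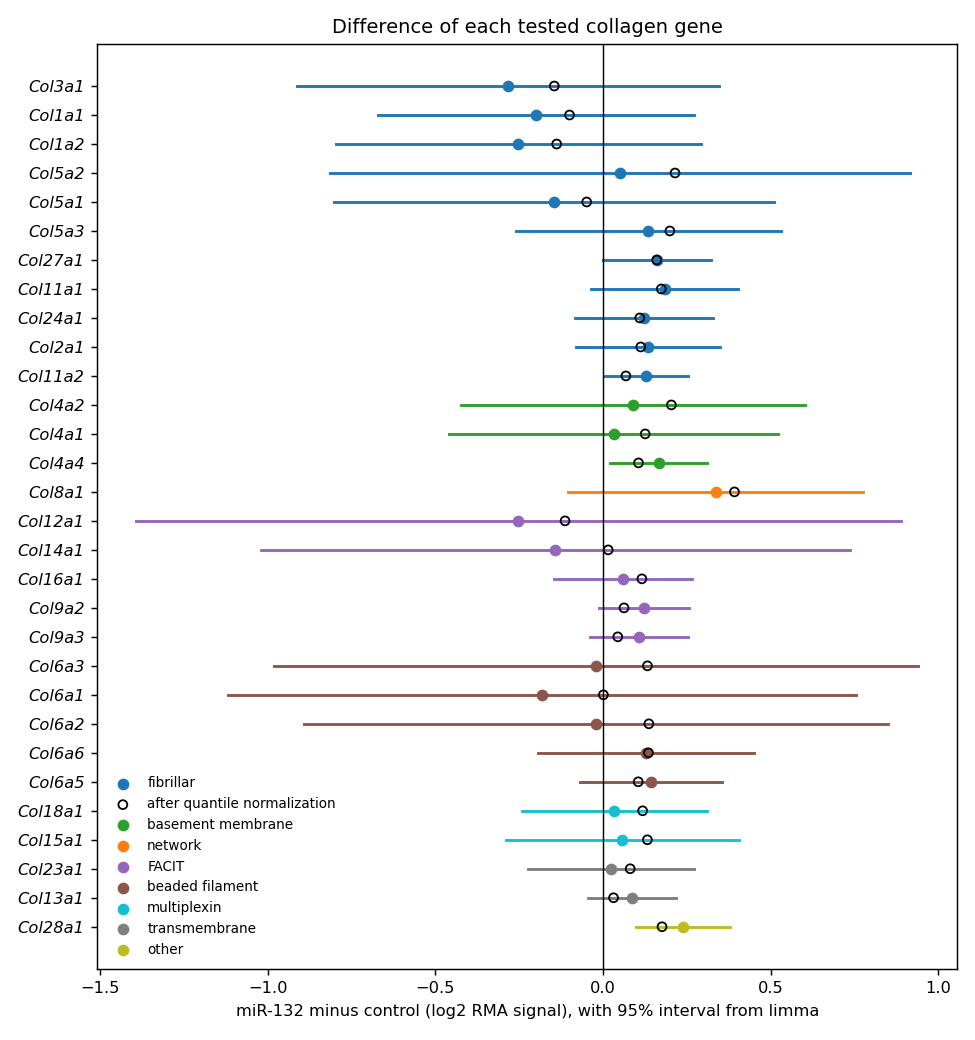
Difference between miR-132 and control wounds for each of the 30 tested collagen genes (filled points, coloured by class, with limma's 95% interval; n = 5 per group), in log2 RMA signal, and the same difference after a further quantile normalization (open circles). The intervals of 26 genes cross 0, and those of Col28a1, Col4a4, Col11a2 and Col27a1 lie above it before any adjustment for the number of genes tested.

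The direction differed with signal level, split at 6 after the values were seen. All 15 tested collagens with a mean up to 6 averaged higher, by 0.02 to 0.34 with a median of 0.13, and all 15 also averaged higher after quantile normalization. Over all 8534 tested genes at that level, 57.6% averaged higher, with a median of 0.02. Between 4 and 5, where 11 of these collagens lay, 65.8% of all genes averaged higher, with a median of 0.05. Between 5 and 6, where 4 lay, 47.2% did, with a median of -0.01. The lowest decile of an array was 4.39 to 4.48 with miR-132 and 4.34 to 4.43 in controls. Its part in the differences of dim genes was not tested. Of the 15 collagens above 6, 9 averaged lower and 6 higher, with a median of -0.02, whereas over all 9119 tested genes at that level 34.1% averaged higher, with a median of -0.07. After quantile normalization 5 of those 15 averaged lower and 10 higher, and with the mean of the spike-in controls as a covariate 13 were lower and 2 higher. That covariate is itself higher on 3 of the 5 miR-132 arrays, so it is partly confounded with treatment. The precision differed as well, with a median standard error (SE) of 0.28 above 6 and 0.09 up to 6.

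**Figure D2:**
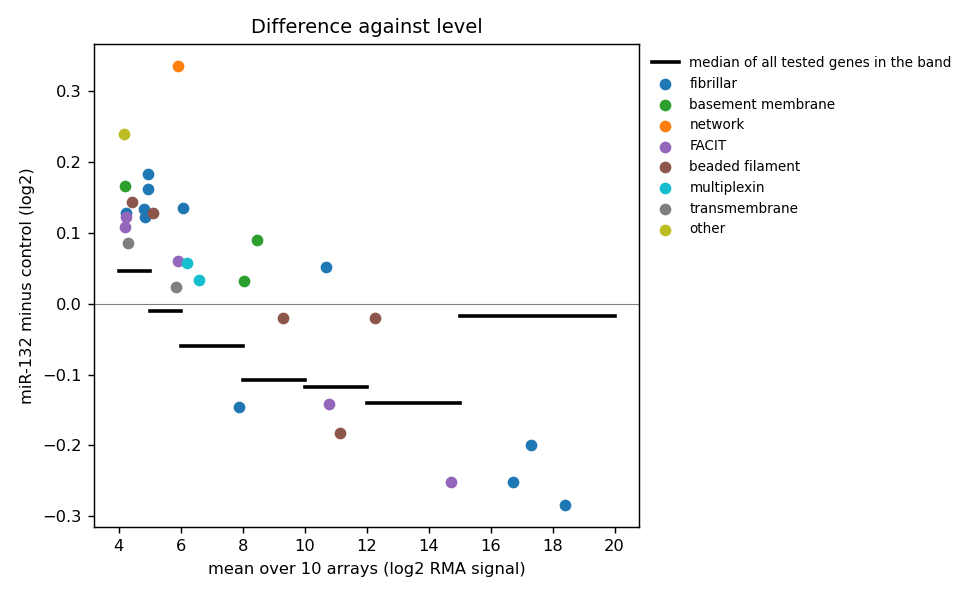
Difference between miR-132 and control wounds (log2) against the mean signal over 10 arrays (log2) for the 30 tested collagen genes, coloured by class. Black bars give the median difference of all tested genes in each band of level, from 0.05 between 4 and 5 to -0.14 between 12 and 15, and collagen genes below a level of 7 all lie above 0.

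Fibrillar collagens were all measured above the filter, 11 of 11, with 4 lower and 7 higher and a median difference of 0.12, which was -0.01 without miR-132 replicate 5 and -0.10 with the spike-in covariate. Those with a mean above 6 (Col3a1, Col1a1, Col1a2, Col5a2, Col5a1 and Col5a3) had a median of -0.17, and the remaining 5 one of 0.13; with the spike-in covariate these medians were -0.48 and 0.18. Col3a1 encodes the chain of type III collagen. It measured 18.60, 18.70, 18.61, 18.25 and 18.51 on control replicates 1 to 5 and 18.60, 17.46, 17.61, 18.98 and 18.60 on miR-132 replicates 1 to 5. On 2 of 5 miR-132 arrays, replicates 2 and 3, it lay below every control, and replicate 4 lay above every control, so the groups overlapped. The difference was -0.28 ± 0.28 (SE), 1.22-fold lower on average, with limma's adjusted p at 0.799.

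Col1a1 and Col1a2 encode the chains of type I collagen. Col1a1 measured 17.49, 17.49, 17.49, 17.09 and 17.48 in controls and 17.49, 16.52, 16.88, 17.49 and 17.66 with miR-132. The value 17.49 recurred to 2 decimals on 5 of the 10 arrays, and 399 of the 728 tested genes with a mean above 15 likewise held a single value on 5 or more arrays, those at the upper limit included. Col1a2 measured 16.93, 16.93, 16.97, 16.69 and 16.78 in controls and 16.97, 15.87, 16.08, 16.99 and 17.13 with miR-132. For both genes miR-132 replicates 2 and 3 were the lowest of all arrays and replicate 5 the highest. The differences were -0.20 ± 0.21 for Col1a1 and -0.25 ± 0.24 for Col1a2 (SE, adjusted p of 0.814 and 0.796 by limma). Without miR-132 replicate 2 the differences were -0.03 for Col1a1, -0.07 for Col1a2 and -0.09 for Col3a1. With the spike-in covariate they were -0.48, -0.48 and -0.54, none of them called.

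Type V chains regulate the diameter of type I fibrils. Col5a2 measured 10.83, 10.83, 11.08, 10.38 and 10.19 in controls and 11.15, 9.67, 9.91, 11.42 and 11.42 with miR-132, a difference of 0.05 ± 0.39 (SE). Col5a1 measured 8.28, 8.13, 8.10, 7.62 and 7.71 in controls and 8.14, 6.97, 7.33, 8.14 and 8.53 with miR-132, a difference of -0.15 ± 0.29 (SE). Both showed the type I order, with miR-132 replicates 2 and 3 lowest. The third type V chain, Col5a3, ranged from 5.71 to 6.35 in controls and from 5.85 to 6.74 with miR-132, with a difference of 0.14.

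The other fibrillar genes were dim, with means from 4.24 to 4.96. Col2a1 and the type XI genes Col11a1 and Col11a2 are best known from cartilage, and differed by 0.13, 0.18 and 0.13. Col27a1, also a cartilage collagen gene, measured 4.83, 4.85, 4.99, 4.92 and 4.80 in controls and 5.01, 5.22, 4.90, 4.93 and 5.14 with miR-132. Its difference was 0.16 ± 0.07 (SE), with limma's unadjusted p at 0.0483 and adjusted p at 0.616. Col11a2 measured 4.17, 4.23, 4.25, 4.14 and 4.11 in controls and 4.29, 4.43, 4.24, 4.23 and 4.35 with miR-132 (unadjusted p of 0.0450, adjusted p of 0.613). Both genes exceeded their control mean on 5 of 5 miR-132 arrays, and the groups overlapped. With the spike-in covariate limma's unadjusted p was 0.03545 for Col27a1 and 0.069 for Col11a2. Col24a1 differed by 0.12. Of 7 cartilage and bone markers, 2 lay above the filter (Bglap and Sox9) and both averaged lower.

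**Figure D3:**
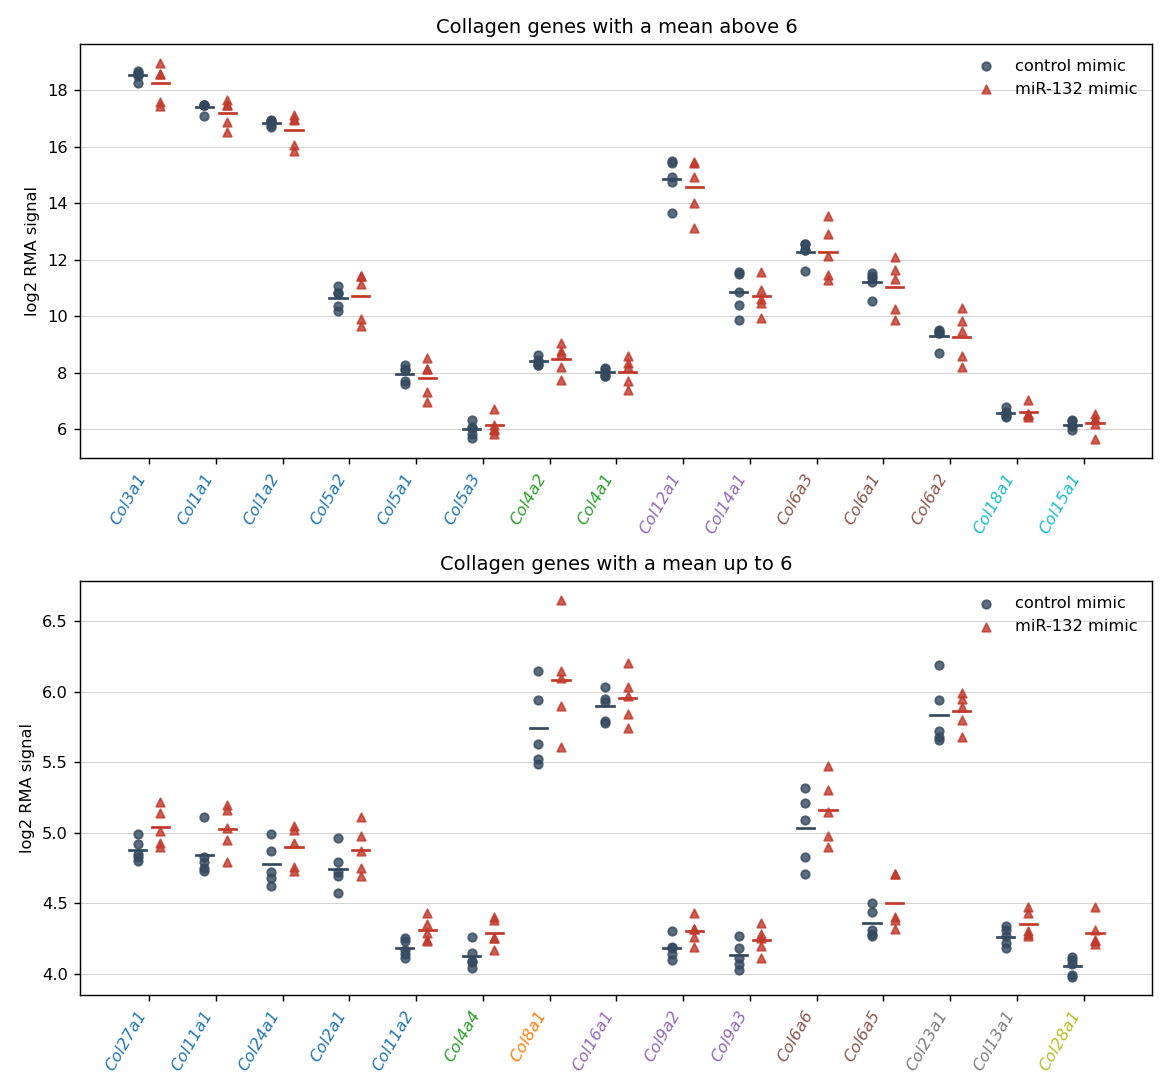
Log2 RMA signal of each tested collagen gene on every array, control mimic as circles and miR-132 mimic as triangles, with bars at group means (n = 5 each); the upper panel holds the 15 genes with a mean above 6 and the lower panel the other 15, and gene names are coloured by class (fibrillar blue, basement membrane green, network orange, FACIT purple, beaded filament brown, multiplexin cyan, transmembrane grey, other olive). In the upper panel the triangles spread more widely than the circles for every gene except Col14a1, and Col28a1 in the lower panel is the gene whose groups do not overlap.

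Basement membrane collagens averaged close to the controls. Of the 6 type IV genes, 3 lay above the filter, 0 lower and 3 higher, with a median of 0.09, and it was -0.05 without miR-132 replicate 4. Col4a1 measured 7.99, 7.89, 8.14, 7.90 and 8.16 in controls and 8.20, 7.70, 7.38, 8.60 and 8.36 with miR-132. Col4a2 measured 8.38, 8.28, 8.46, 8.27 and 8.65 in controls and 8.76, 8.22, 7.76, 9.07 and 8.68 with miR-132. In both, replicates 2 and 3 of the miR-132 group lay below every control and replicates 1, 4 and 5 above every control. The differences were 0.03 ± 0.22 for Col4a1 and 0.09 ± 0.23 for Col4a2 (SE, n = 5 per group). Col4a4, a chain of specialised basement membranes such as that of the kidney glomerulus, measured 4.08, 4.15, 4.26, 4.04 and 4.09 in controls and 4.25, 4.40, 4.25, 4.17 and 4.38 with miR-132. Its difference was 0.17 ± 0.06 (SE), with limma's unadjusted p at 0.0282 and adjusted p at 0.596. Col4a4 stood near the filter, with a control mean of 4.12 and a miR-132 mean of 4.29, and passed it only through the miR-132 group. With the spike-in covariate limma's unadjusted p was 0.1106.

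Of the network collagens, 1 of 3 lay above the filter. Col8a1 encodes a chain of type VIII collagen, a product of vascular and wound cells. It measured 5.94, 5.52, 6.15, 5.49 and 5.63 in controls and 6.65, 6.15, 5.61, 5.90 and 6.10 with miR-132. Only miR-132 replicate 1 lay above all controls, and the other 4 arrays of that group stayed inside the controls' range. The difference of 0.34 ± 0.20 (SE), 1.26-fold higher on average, had limma's adjusted p at 0.679, was 0.19 without miR-132 replicate 1 and was 0.62 with the spike-in covariate. It was the largest difference of the tested collagens in either direction.

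FACIT collagens numbered 5 of 9 above the filter, with 2 lower, 3 higher and a median of 0.06, which was -0.001 without miR-132 replicate 5 and 0.0057 with the spike-in covariate. Col12a1, whose product binds type I fibrils in stretched tissue, measured 14.93, 13.65, 15.43, 15.50 and 14.75 in controls and 15.44, 13.14, 14.00, 14.94 and 15.48 with miR-132. Its difference of -0.25 ± 0.51 (SE) had the widest interval of the family, from -1.39 to 0.89, and was 0.11 without miR-132 replicate 2. Col14a1, a close relative, measured 10.42, 11.58, 11.51, 9.86 and 10.88 in controls and 10.47, 10.62, 9.94, 11.56 and 10.95 with miR-132. Its difference was -0.14 ± 0.39 (SE) on the deposited values and 0.02 after quantile normalization. Control replicate 4 was the highest array for Col12a1 and the lowest for Col14a1, while control replicate 3 was high for both. Col16a1 measured 5.93, 6.03, 5.95, 5.78 and 5.79 in controls and 6.03, 5.84, 5.74, 5.97 and 6.20 with miR-132, with a difference of 0.06. The type IX genes Col9a2 and Col9a3 differed by 0.12 and 0.11 at means of 4.24 and 4.19.

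The beaded filament genes of type VI collagen spread widely among the miR-132 wounds, with 5 of 6 above the filter, 3 lower and 2 higher. Their median of -0.02 was -0.28 without miR-132 replicate 5, 0.18 without miR-132 replicate 3, 0.13 after quantile normalization and -0.20 with the spike-in covariate. Col6a1 measured 11.44, 11.22, 11.36, 10.56 and 11.53 in controls and 11.63, 10.26, 9.89, 11.31 and 12.11 with miR-132. Col6a2 measured 9.47, 9.42, 9.51, 8.69 and 9.43 in controls and 9.84, 8.59, 8.20, 9.48 and 10.31 with miR-132. Col6a3 measured 12.57, 12.37, 12.57, 11.60 and 12.34 in controls and 12.92, 11.46, 11.28, 12.14 and 13.55 with miR-132. For each chain miR-132 replicate 5 was the highest array, miR-132 replicate 3 the lowest, and control replicate 4 the lowest control. The differences were -0.18 ± 0.42, -0.02 ± 0.39 and -0.02 ± 0.43 (SE), and after quantile normalization 0.0015, 0.14 and 0.13. The minor chains Col6a5 and Col6a6 differed by 0.14 and 0.13.

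The multiplexin genes Col15a1 and Col18a1 differed by 0.06 and 0.03. Col18a1, whose product carries the endostatin fragment, measured 6.57, 6.79, 6.60, 6.49 and 6.43 in controls and 6.53, 6.53, 6.51, 6.43 and 7.05 with miR-132. Col15a1 measured 6.30, 6.11, 6.12, 5.98 and 6.32 in controls and 6.38, 6.37, 5.65, 6.19 and 6.53 with miR-132. Both were highest on miR-132 replicate 5, and the groups overlapped. Of the transmembrane collagens, Col23a1 measured 5.72, 5.68, 5.94, 6.19 and 5.66 in controls and 5.95, 5.89, 5.68, 5.80 and 5.99 with miR-132, a difference of 0.02. Col13a1 measured 4.18, 4.31, 4.34, 4.27 and 4.22 in controls and 4.27, 4.47, 4.28, 4.30 and 4.43 with miR-132, a difference of 0.09. Their groups overlapped too.

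Col28a1, a collagen gene best known from peripheral nerve, had the smallest p of the family. It measured 3.99, 4.12, 4.10, 3.98 and 4.07 in controls and 4.21, 4.31, 4.23, 4.24 and 4.47 with miR-132. Every miR-132 array lay above every control array, which held for 1 of the 30 collagens tested and for 0.283% of all genes in that direction (0.646% in the other, 0.929% in all). The difference was 0.24 ± 0.06 (SE), with limma's unadjusted p at 0.00354 and adjusted p at 0.596. With the spike-in covariate the difference was 0.18, with limma's unadjusted p at 0.0738. Its mean of 4.172 lay just inside the filter at 4.171, next to Col4a5 just outside it at 4.164. The signal is therefore at the floor of what was tested. The control mean was 4.05 and the miR-132 mean 4.29, so the gene passed the filter only through the miR-132 group. Its p and the lack of overlap are therefore not independent of its being tested. The nerve markers Mbp and S100b differed by -0.05 and 0.05.

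The 12 members below the filter were Col4a3, Col4a5, Col4a6, Col6a4, Col8a2, Col9a1, Col10a1, Col19a1, Col20a1, Col22a1, Col25a1 and Col26a1. Their means ranged from 3.63 to 4.16 and their single values from 3.11 to 4.41. Of these, 11 averaged higher with miR-132, by up to 0.16, and Col10a1, the collagen of hypertrophic cartilage, averaged 0.03 lower. These levels do not show whether the genes are transcribed in the wound.

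For several chains the miR-132 samples spread more widely than the controls. The SD was larger with miR-132 than in controls for 25 of the 30 collagens, as it was for 68.2% of all genes tested. It was at least 2 times as large for 11 of the 30, all of them among the 15 above a level of 6. The share was 25.3% over all genes tested, at every level. That share was not computed for genes above 6 alone, so it is not matched for level. Col1a2 had an SD of 0.12 in controls and 0.59 with miR-132 (n = 5 each), Col3a1 0.17 and 0.67, and Col4a1 0.13 and 0.50. These ratios were not tested. Of the 15 collagens above 6, 14 lay below the control mean on miR-132 replicate 2 and 15 on replicate 3, against 3 on replicate 1, 2 on replicate 4 and 0 on replicate 5. On control replicate 4 the number was 14 as well.

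**Figure D4:**
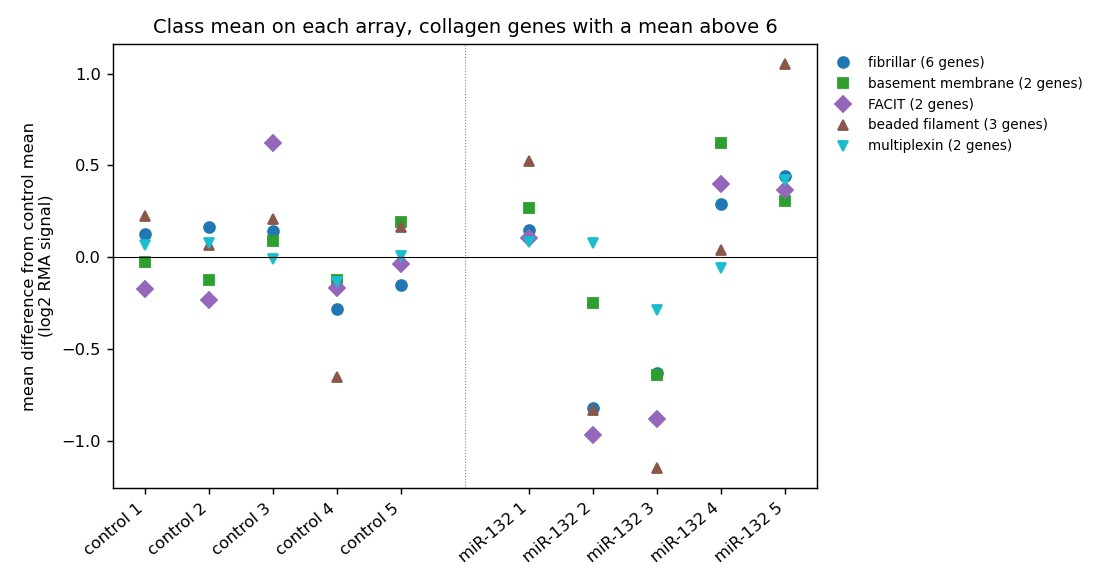
Mean difference from the control mean (log2 RMA signal) of the collagen genes above a level of 6, by class, on each of the 10 arrays. On miR-132 replicate 3 all 5 classes lie below 0, fibrillar genes at -0.63 and beaded filament genes at -1.15, and on miR-132 replicate 5 all 5 lie above 0, at 0.44 and 1.05.

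The same arrays were low for fibroblast markers. Of 10 measured fibroblast markers (11 listed), 4 averaged lower and 6 higher with miR-132, with a median of 0.07. Their mean level was 9.27 on miR-132 replicate 2 and 8.97 on replicate 3, with 9.72 to 10.20 on replicates 1, 4 and 5 and 9.31 to 9.79 in controls. Control replicate 4 was the lowest control. Skeletal muscle markers were highest on miR-132 replicate 2, at 13.83, with 12.17 on replicate 3 and a control range of 10.21 to 13.54, and all 11 averaged lower with miR-132. Adipocyte markers ranged from 7.59 on miR-132 replicate 3 to 11.45 on replicate 1 and from 7.68 to 10.25 in controls, with 8 of 8 higher. Median differences were -0.13 for smooth muscle and pericyte markers (6 of 8 lower), -0.03 for endothelium (7 of 9 lower), -0.27 for basal keratinocytes (10 of 10 lower), 0.16 for differentiated keratinocytes (4 of 7 higher), 0.04 for macrophages (5 of 8 higher) and -0.32 for neutrophils (7 of 7 lower). Krt5, Krt14, S100a8 and S100a9 held the upper limit of 19.93 on every control array, so they could not average higher with miR-132. Krt10 held it on every miR-132 array and could not average lower, and Krt1 held it on all 10 arrays. The counts for keratinocytes and neutrophils were therefore partly set by the limit. With the spike-in covariate the medians were 0.11 for skeletal muscle, 1.78 for adipocytes, -0.06 for fibroblasts, 0.07 for smooth muscle and pericytes and -0.14 for macrophages. The part of cell composition in the collagen values was not tested. Of 5 housekeeping genes, Actb, Gapdh and B2m held a single value on all 10 arrays and carry no information on the arrays, and Hprt and Tbp differed by 0.15 and -0.08.

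Chains that assemble into 1 molecule tracked each other closely over the 10 arrays. Each gene was centred on its group mean, and 6 pairs were computed, with permutation p-values adjusted over the pairs. Pearson's r was 0.97 for Col1a1 with Col1a2 (Spearman's rho 0.99), 0.95 for Col5a1 with Col5a2 (rho 0.94) and 0.98 for Col4a1 with Col4a2 (rho 0.95), the genes whose promoter windows overlap. It was 0.99 for Col6a1 with Col6a2 (rho 0.89) and 0.96 for Col6a1 with Col6a3 (rho 0.81). Col1a2 and Col3a1, whose products meet in mixed fibrils and whose windows share neither marked motif, had an r of 0.95 (rho 0.96). The adjusted permutation p ranged from 4e-05 to 7e-05 for r and from 0.00012 to 0.00642 for rho. Leaving out the 2 arrays farthest from the median of the first chain gave an r of 0.86 to 0.98, the lowest for Col1a2 with Col3a1. After quantile normalization the lowest r was also that of Col1a2 with Col3a1, at 0.86. All points share the arrays' normalization and the range of signal of each array, and the same arrays, miR-132 replicates 2 and 3, sit low in every pair. The only pair from different molecules, Col1a2 with Col3a1, had the same rounded r as Col5a1 with Col5a2, at 0.95. Other pairs from different molecules were not computed, so close tracking is not shown to be particular to chains of 1 molecule.

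**Figure D5:**
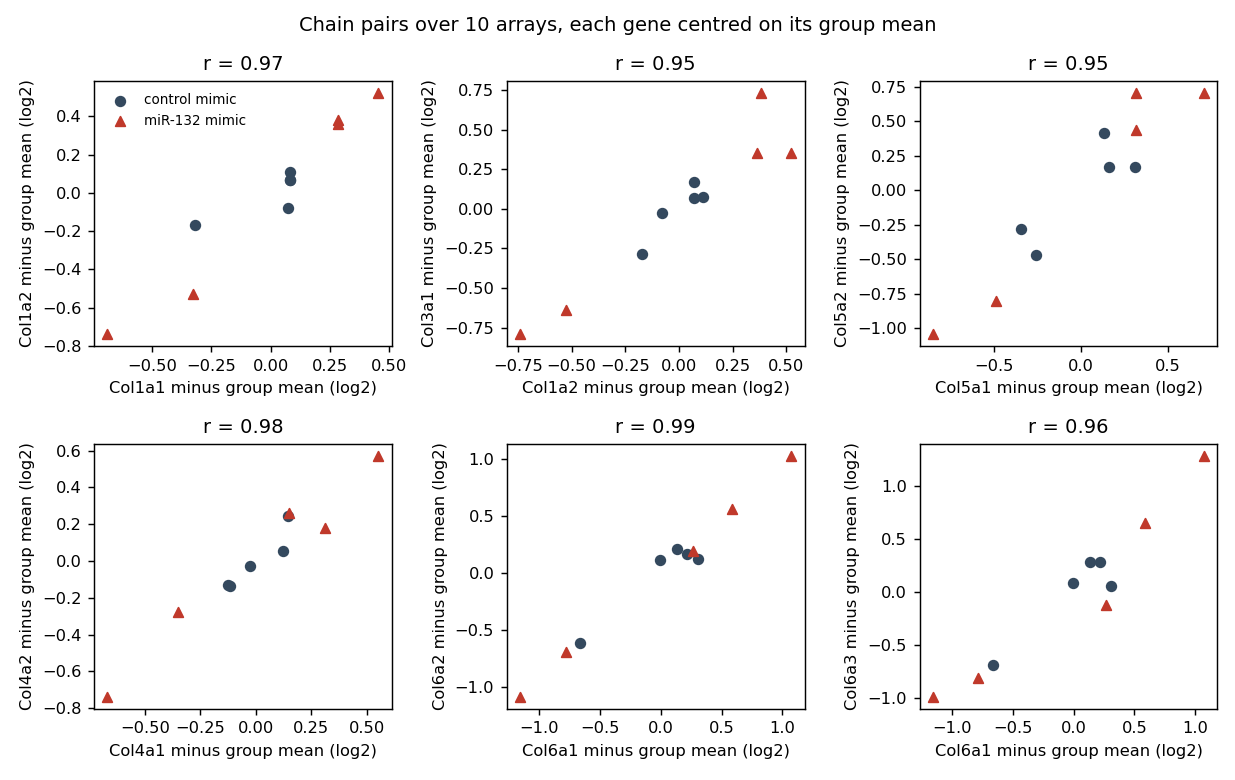
Pairs of collagen chains over the 10 arrays (log2 RMA signal minus the group mean of each gene on both axes), control mimic as circles and miR-132 mimic as triangles. Pearson's r runs from 0.95 to 0.99, and the triangles reach farther along each diagonal than the circles, with 2 triangles at the lower end of every panel.

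To contrast the classes within each array, 1 chain of each was set against Col1a2 as a log2 ratio and compared between groups by a two-sided exact permutation test over 252 splits, with 5 ratios adjusted together. The ratio of Col3a1 to Col1a2, an index of type III against type I, differed by -0.03 (exact p of 0.794, adjusted p of 0.992). The ratio of Col8a1 to Col1a2 was 0.59 higher with miR-132, from -11.11 ± 0.22 to -10.53 ± 0.56 (SD, n = 5 each), with an exact p of 0.0635 and an adjusted p of 0.218; without miR-132 replicate 2 it was 0.39 higher. The ratio of Col4a1 to Col1a2 was 0.28 higher, from -8.84 ± 0.16 to -8.56 ± 0.27 (SD, n = 5 each), with an exact p of 0.0873 and an adjusted p of 0.218; without miR-132 replicate 2 it was 0.19 higher. The ratios of Col6a1 and Col12a1 to Col1a2 differed by 0.07 and 0 (exact p of 0.794 and 1). None of the 5 passed, and the smallest p this design allows is 0.00794. Ratios between features reflect probe design in their level, so only their change between groups was compared. That change can also carry the range of signal of each array. The array of miR-132 replicate 2, with the narrowest range, held the highest Col8a1 and Col4a1 ratios, at -9.72 and -8.17. On miR-132 replicate 5, the next narrowest, they were -11.03 and -8.77. After quantile normalization these 2 ratios were 0.53 and 0.26 higher. The part of the range in them was not tested.

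The enzymes and partners of collagen assembly did not pass limma's adjusted threshold either, with 0 called in each of the lists that follow. Of 22 genes for modification and folding of the chains in the cell, 19 were tested, 13 lower and 6 higher, with a median of -0.04. It was 0.06 after quantile normalization, 0.06 without miR-132 replicate 2, -0.11 without miR-132 replicate 4 and -0.23 with the spike-in covariate. Only P3h2, a prolyl 3-hydroxylase, had an unadjusted p under 0.05 there, at -0.44 ± 0.17 (SE, adjusted p of 0.596), with 5 of 5 miR-132 arrays under the average of the controls. P4hb, a subunit of prolyl 4-hydroxylase, differed by -0.32, and Sparc, a collagen-binding matrix protein, by -0.15. Fkbp14, of the same list, differed by 0.23. Of 14 genes for propeptide cleavage and crosslinking, 10 were tested, 3 lower and 7 higher, with a median of 0.07, which was -0.009 without miR-132 replicate 5, 0.13 without miR-132 replicate 3 and -0.13 with the spike-in covariate. In that list Furin, a proprotein convertase, differed by -0.62 ± 0.16 (SE, unadjusted p of 0.00269, adjusted p of 0.596), again with 5 of 5 arrays under that average, and Pcolce2, an enhancer of procollagen cleavage, by 0.39. Over all genes tested, 5.62% were lower at an unadjusted p under 0.05.

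Of 14 fibril regulators, 11 were tested, 4 lower and 7 higher, with a median of 0.05. It was 0.02 without miR-132 replicate 4, 0.22 without miR-132 replicate 3, 0.18 after quantile normalization and 0.01 with the spike-in covariate. The small leucine-rich proteoglycan genes among them included Prelp at 0.88, Ogn at 0.55, Omd at 0.36 and Fmod at -0.20. Of 10 collagen receptors, 7 were tested, 5 lower and 2 higher, with a median of -0.04 that was 0.01 after quantile normalization and 0.0081 with the spike-in covariate, and that ran from -0.11 without control replicate 2 to -0.005 without miR-132 replicate 2. Ddr1, a receptor tyrosine kinase for collagen, differed by -0.19, the integrin gene Itga2 by -0.60 and Ddr2 by 0.26. Of 11 genes of collagen degradation and its inhibition, 10 were tested, 7 lower and 3 higher, with a median of -0.32. The 7 lower were proteases, and the 3 higher were the inhibitor genes Timp1, Timp2 and Timp3, at 0.008, 0.07 and 0.14. The median of the list was -0.10 without control replicate 4 and -0.51 without control replicate 1. It was -0.16 after quantile normalization and -0.39 with the spike-in covariate. The collagenase gene Mmp13 differed by -1.39 ± 1.06 (SE), the gelatinase genes Mmp2 by -0.57 and Mmp9 by -1.34, and the neutrophil collagenase gene Mmp8 by -0.54. Mmp9 had an unadjusted p of 0.0308 and an adjusted p of 0.596, and Mmp13, Mmp2 and Mmp8 had adjusted p-values of 0.723 to 0.799 by limma.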

How the data were processed

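Wound-edge RNA was measured on 10 arrays, 5 per group. The authors made the deposited log2 values with RMA in Affymetrix Expression Console 1.4, per the submitters' processing notes. The labels give no log base, and log2 was inferred from the shared upper limit of 19.93, the log2 of 1000000. No genome build of the features is stated, and none is placed on the genome. All 10 value columns matched a sample, 0 were unused and 0 pairs of arrays were identical. The number of arrays limits the precision.

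The platform annotation names 1 gene for 31247 features and several for 1503, which were not used, and 39938 are unnamed here. The feature of Col6a4 also lists its synonym Dvwa. The brightest feature was kept for 365 genes with more than 1, and each collagen had 1. Genes with a mean above 4.171 (17653 of 30773) were tested two-sided with limma 3.58.1 in R 4.3.3, using eBayes with an intensity trend and Benjamini-Hochberg adjustment over all of them at 0.05. Tested on simulated data of 17653 genes, the fit called 73% of the 2-fold changes, 93% of the 4-fold changes and 7 unchanged genes. The simulation drew independent normal noise per gene with the same SD in both groups, and changed randomly chosen genes. In the arrays the SD was larger with miR-132 for 68.2% of genes, and collagens above 6 had a median SE of 0.28. These percentages are therefore not the share of changed collagens that would be called. Correlations used 100000 resamples. Classes and lists were described by counts and medians, with no test.

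Members and lists were chosen with earlier results of these data known. Every tested member is named, with its value on every array for the 3 brightest of each class and for those at an unadjusted p under 0.05; of other lists, at most the 4 genes with the smallest p. Array values of Col5a1, Col5a2 and others beyond this rule, the split at a level of 6, the counts of SDs and shared values, and the motifs were chosen after values were seen. The inhibitor genes and the markers at the upper limit were also named beyond this rule, after values were seen. A ratio with Col7a1 and correlations with Col8a2 and Col9a1 could not be run. Alternatives changed the normalization, level filter, design, intensity trend, feature of a gene and arrays used. Some markers of nerve are not reported here.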

Additional observations from a re-analysis of the deposited data

Results flagged for a closer look

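Over 70 sets of 5 arrays (30 genes and 5 ratios in both groups), 5 held an array separated from the other 4 by more than Dixon's critical value of 0.71 of the range, where chance gives about 1 in 20. Control replicate 4 stood low for Col1a1 at 17.09 (other controls 17.48 to 17.49), for Col6a2 at 8.69 (9.42 to 9.51) and for Col6a3 at 11.60 (12.34 to 12.57). Control replicate 3 stood high for Col11a1 at 5.11 (other controls 4.73 to 4.83). The array of miR-132 replicate 5 stood high for Col18a1 at 7.05 (other miR-132 arrays 6.43 to 6.53). The sets are not independent, since chains of 1 molecule track each other.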

How the results depend on the processing

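The count of collagens called was 0 under all alternatives run. The 4 higher at an unadjusted p under 0.05 became 1 with quantile normalization, with median centring and without miR-132 replicates 2 and 5. They became 0 with a level filter of 6, and 1 to 6 without single arrays. With the spike-in covariate there were 3, namely Col27a1, Col8a1 and Col9a2, of which only Col27a1 was among the 4. Genes averaging higher (21) numbered 6 with a level filter of 6 (15 members), 32 with no filter (42 members) and 14 to 26 without single arrays. Genes averaging lower (9) numbered 5 with quantile normalization, 14 without miR-132 replicates 2 and 5, and 4 to 16 without single arrays. With the level filter of 6, class medians were -0.17 for fibrillar and -0.20 for FACIT genes. Without miR-132 replicates 2 and 5 the ratio of Col3a1 to Col1a2 differed by 0.0427 and that of Col6a1 by -0.0987; without single arrays they ranged from -0.119 to 0.011 and from -0.067 to 0.23. The Col12a1 ratio, at 0, has no direction, so its changes of sign were not counted, a choice made after its value was seen; it ranged from -0.318 to 0.20 without single arrays. Those of Col8a1 and Col4a1 ranged from 0.39 to 0.73 and from 0.19 to 0.34. The cause of these shifts was not tested.

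Of the 30 tested collagens, 15 changed sign under at least 1 alternative, none of them called. With the hybridisation controls as covariate Col4a1 was at -0.0351, Col5a2 at -0.3247, Col5a3 at -0.1021 and Col18a1 at -0.1007. Median centring gave 0.022 for Col6a3 and Col6a2. Quantile normalization gave 0.0158 for Col14a1, 0.1329 for Col6a3, 0.0015 for Col6a1 and 0.1371 for Col6a2. Without miR-132 replicates 2 and 5 Col6a6 was at -0.022, Col5a3 at -0.0147, Col18a1 at -0.086, Col15a1 at -0.0927 and Col23a1 at -0.028. Leaving out single arrays gave Col12a1 -0.5525 to 0.113, Col14a1 -0.3895 to 0.05, Col15a1 -0.0185 to 0.2015, Col16a1 -0.001 to 0.114, Col18a1 -0.076 to 0.0875, Col23a1 -0.0205 to 0.112, Col4a1 -0.106 to 0.199, Col4a2 -0.053 to 0.2745, Col5a1 -0.323 to 0.067, Col5a2 -0.1245 to 0.313, Col5a3 -0.013 to 0.2215, Col6a1 -0.4495 to 0.1055, Col6a2 -0.2765 to 0.251 and Col6a3 -0.34 to 0.2275.

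Same-numbered arrays correlated at 0.16, 0.14, 0.04, 0 and -0.03 in their deviations from the group means. Arrays of different numbers were not compared, so these values do not settle whether the numbers pair the samples. With the replicate block 2 collagens lay under the unadjusted threshold, 0 passed adjustment, and the median difference was 0.07. With that pairing the exact sign permutation p was 0.0625 for the ratio of Col8a1 to Col1a2, the smallest it can give.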

Other observations

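The FACIT genes Col12a1 and Col14a1 had opposite extremes on 2 of the control arrays. Control replicate 2 held the lowest control value of Col12a1 (13.65) and the highest of Col14a1 (11.58), and control replicate 4 the highest of Col12a1 (15.50) and the lowest of Col14a1 (9.86). Control replicate 3 was second highest for both (15.43 and 11.51). With miR-132, replicate 3 was low for both (14.00 and 9.94) and replicate 4 held the highest Col14a1 (11.56).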
